A study of Mus musculus with 6 samples.

Results

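The genes described here are 10 early response and mRNA control genes: Zfp36, Zfp36l1, Zfp36l2, Btg1, Btg2, Ier2, Ier3, Ppp1r15a, Gadd45b and Zc3h12a. They were taken by name, and all 10 of 10 were found among the 19752 genes measured, each with 1 probe set that names no other gene. They were followed in Treg (regulatory T) cells, a CD4 lineage that depends on the transcription factor Foxp3 and restrains immune responses. The cells came from pancreas (3 arrays) or spleen (3 arrays) of prediabetic female NOD mice aged 10 weeks, a strain that becomes diabetic through autoimmunity. Both groups shared the background labelled NOD NRB_SFB+ and a Foxp3-ires-gfp reporter, which marks Treg cells by green fluorescence. Both were double-sorted as DAPI- CD45+ TCRb+ CD4+ GFP+ cells, and the label that separates the groups is the tissue. Amplified RNA was measured on Affymetrix Mouse Gene 1.0 ST microarrays. The labels do not say whether arrays came from separate or pooled mice, so the p-values cover the spread among these arrays alone, and that spread may be technical.

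Messenger RNAs of cytokines and other short-lived proteins are removed quickly, and several of these genes make the proteins that remove them. Zfp36 (tristetraprolin) and its relatives Zfp36l1 and Zfp36l2 bind AU-rich elements in the tails of mRNAs and recruit the CCR4-NOT complex, which shortens the poly(A) tail. Btg1 and Btg2 bring deadenylases of the same complex to mRNAs and hold lymphocytes in quiescence. Zc3h12a makes regnase-1, a nuclease that cuts stem-loops in the mRNAs of cytokines and activation genes. Ppp1r15a (GADD34) guides protein phosphatase 1 to the initiation factor eIF2 alpha and so restarts translation after stress. Gadd45b binds stress kinases, and Ier2 and Ier3 are immediate-early genes, switched on within minutes of a stimulus. Many of these mRNAs are themselves unstable and appear early after T cell receptor stimulation, cytokines or mechanical and enzymatic handling of cells.

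Of the 10 genes, 1 was higher in the Treg samples from pancreas and 0 were lower. Ppp1r15a was 3.24-fold higher in pancreas than in spleen. Gadd45b stood 2.60-fold higher in the mean but missed the test, and the other 7 genes above background had folds between 0.880 and 1.45. The test was limma across all genes with Benjamini-Hochberg adjustment, and passing means an adjusted p under 0.05. At an unadjusted p under 0.05 there were 3 of the 10 higher and 0 lower, beside 3.2% and 3.64% of all genes. Of all 19752 genes, 0.547% passed as higher in pancreas and 0.132% as lower. For 3 of the 10 every pancreas array exceeded every spleen array, namely Ppp1r15a, Gadd45b and Zfp36. Over all genes, 4.57% did not overlap and were higher in pancreas, and 5.81% were lower. The mean was higher in pancreas for 8 of the 10, beside 49.8% of all genes, and the median log2 fold change of the 10 was 0.26, beside 0.00 over all genes to 2 decimals. The 8 and this median include Ier3, which was below background. The 10 were chosen with earlier results of these data known, so these shares describe them and are no test. Of the 10, 9 lay above background on all 6 arrays. Background was an intensity of 63.9, the level under which 95% of 1194 olfactory and vomeronasal receptor genes lay.

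**Figure D1:**
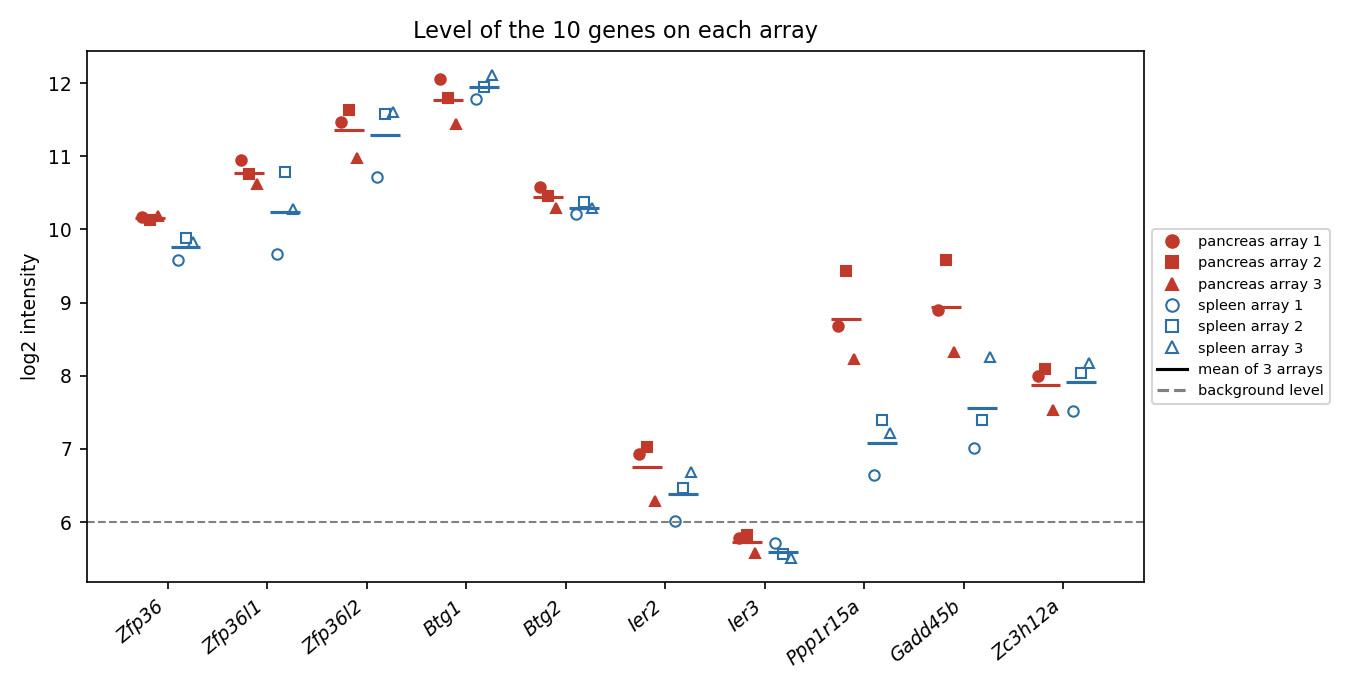
Log2 intensity of each of the 10 genes on each of the 6 arrays, with filled red symbols for pancreas, open blue symbols for spleen and a bar for each mean of 3 arrays; levels of different genes are not comparable on arrays. The tissues stand apart for Ppp1r15a, Gadd45b and Zfp36, and Ier3 lies under the dashed background level on all arrays.

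Ppp1r15a, the phosphatase subunit gene, had intensities of 409.7, 691 and 301 on the 3 pancreas arrays in their numbered order, against 99.8, 169 and 149 on the 3 spleen arrays. The lowest pancreas array stood above the highest spleen array, and the pancreas arrays were themselves spread widely. The log2 intensity was 8.78 ± 0.61 against 7.09 ± 0.40 (SD, n = 3 each). The log2 fold change of 1.69 ± 0.30 (SE), with a 95% interval of 1.04 to 2.35, passed the test (limma adjusted p = 0.0337). By p-value it ranked 95 of the 19752 genes. With 1 array left out the log2 fold change ran from 1.37 to 1.97. The call ended without pancreas array 1 (adjusted p = 0.0900), pancreas array 2 (0.0914), spleen array 1 (0.0782), spleen array 2 (0.0565) or spleen array 3 (0.0595). It held only without pancreas array 3, at an adjusted p of 0.000816. Centring arrays on their medians ended it too (adjusted p = 0.146), as did scaling arrays to a common interquartile range (0.0557), while the log2 fold change moved only to 1.68 and 1.74.

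Gadd45b, the stress sensor gene, read 478, 766 and 320.2 on pancreas arrays 1 to 3 and 129.5, 168 and 307 on spleen arrays 1 to 3. Pancreas array 3 and spleen array 3 lay close to each other, and the other arrays were far apart. Log2 intensity was 8.94 ± 0.63 in pancreas and 7.56 ± 0.64 in spleen (SD, n = 3 each), a log2 difference of 1.38 ± 0.35 (SE, 95% interval 0.60 to 2.16). The adjusted p was 0.160. Without pancreas array 3 the difference was 1.68 and passed (adjusted p = 0.0102). With any other array left out it did not pass, with an adjusted p of 0.0502 without spleen array 3 and of 0.615 without pancreas array 2.

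**Figure D2:**
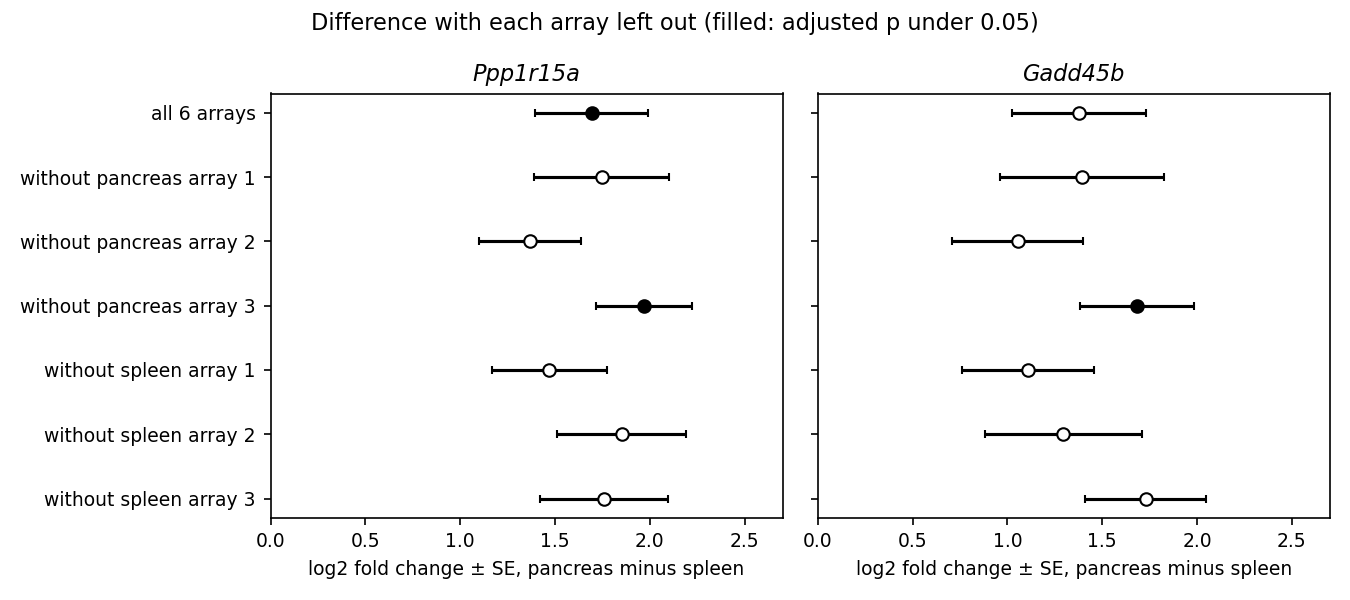
Log2 fold change with its standard error for Ppp1r15a (left) and Gadd45b (right), with all 6 arrays and with each left out in turn; filled points have an adjusted p under 0.05. All values are above 0, between 1.05 and 1.97, and both genes pass together only without pancreas array 3.

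RNA of pancreatic acinar cells, which make digestive enzymes, was also higher on the pancreas arrays. Of 23 measured acinar markers, 17 rose in pancreas and 0 fell (limma, adjusted p under 0.05). These were Clps, Rnase1, Cpa1, Zg16, Try5, Ctrl, Cela2a, Reg1, Prss2, Cpb1, Sycn, Cel, Ctrb1, Pnliprp1, Gp2, Try4 and Cela3b, most of them genes of digestive enzymes and their cofactors. The summed intensity of the 23 was 24202, 39117 and 18077 on pancreas arrays 1 to 3 and 1892, 1751 and 3889 on spleen arrays 1 to 3. The pancreas arrays thus had the same order for acinar RNA, Ppp1r15a and Gadd45b, highest on array 2 and lowest on array 3. Zfp36l2, Ier2 and Zc3h12a, without a clear tissue difference, had that order too. Of the 11698 genes with a mean above background, 62.4% were lowest on pancreas array 3 and 30.9% highest on array 2. Spleen array 3, the highest spleen array for acinar RNA, was also the highest for Gadd45b but not for Ppp1r15a. It was the highest spleen array for 42.2% of those 11698 genes. The part of acinar RNA in these differences was not tested. B cell markers rose as well, 5 of 17 and 0 falling, with the MHC class II genes H2-Aa, H2-Ab1 and H2-Eb1, their chaperone gene Cd74 and the B cell receptor gene Cd79a. All 17 had a higher mean in pancreas, 15 were higher at an unadjusted limma p under 0.05 and 12 did not overlap. The median log2 fold change was 1.25 over the 17 and 1.62 over the 13 with a mean above background. The B cell sums were 4651, 2843 and 5775 on pancreas arrays 1 to 3, beside 1409 to 1773 in spleen. Their part in the differences of Ppp1r15a and Gadd45b was not tested either. Of 21 macrophage and dendritic cell markers 1 rose, the lysozyme gene Lyz2, and 6 were higher at an unadjusted limma p under 0.05. On 7 of the 21 the tissues did not overlap, all higher in pancreas, and the median log2 fold change was 0.54 over the 9 with a mean above background. Short of the threshold were Cybb (0.84), Lyz1 (0.64) and Fcer1g (0.57, with 2 of 3 spleen arrays above background). Of the 21, 11 were below background on all 6 arrays. Csf1r, Adgre1, Itgax, Fcgr1, Cd14 and Flt3 were among these 11, and the summed level of the list was 2091 to 2448 in pancreas and 1499 to 1655 in spleen. Fewer cells of a type and less RNA per cell cannot be told apart in such bulk samples.

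Of 10 CD8 T and NK cell markers 2 passed, Klrc1 and Klrd1, both below background on all 6 arrays. The sum of that list was 797 to 969 in pancreas and 724 to 846 in spleen, and Ncr1 and Klrb1c were also below background throughout. Eomes, Cd8b1, Cd8a and Crtam, above background, had log2 fold changes of -0.05, -0.02, 0.01 and 0.00. Of 14 islet and 13 endothelial and stromal markers, 0 passed (limma; 1 of each list had an unadjusted p under 0.05). Islet sums ran from 721 to 999.6 in pancreas and from 758 to 901 in spleen, with Gcg and Iapp below background on all arrays. Ins2 was at 0.21, Ppy at -0.18, Sst at 0.09 and Nkx6-1 at -0.07 (log2 fold change). Endothelial and stromal sums ran from 1252 to 1354 in pancreas and from 1507 to 1657 in spleen, with Cdh5 and Kdr below background. The adhesion gene Pecam1, also made by leukocytes, was at 8.80 ± 0.31 against 9.61 ± 0.09 (SD, n = 3 each) and did not pass, while 7 of the 13 markers had a higher mean in pancreas, among them Sparc (0.27), Col1a1 (0.11) and Col1a2 (0.10). Of 9 Treg identity markers 0 passed (1 had an unadjusted p under 0.05), and the summed level was 29791 to 31239 in pancreas and 29399 to 34693 in spleen, overlapping between tissues. The 4 nearest to the threshold were Ctla4 (0.60), Il2ra (-0.32), Ptprc (-0.21) and Ikzf2 (0.12).

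Zfp36, the founding member of the AU-rich element binding family, was at 1148, 1117 and 1159 on pancreas arrays 1 to 3 and at 764, 943 and 913 on spleen arrays 1 to 3. The tissues did not overlap, and the pancreas arrays were nearly level, with an SD of 0.03 on the log2 scale. The log2 difference was small, at 0.39 ± 0.16 (SE, 95% interval 0.04 to 0.75), and did not pass (adjusted p = 0.640). Zfp36l1, its relative that restrains lymphocyte proliferation, was at 1967, 1728 and 1576 in pancreas and at 809, 1756 and 1242 in spleen. Here the tissues overlapped, since spleen array 2 reached the pancreas range and spleen array 1 lay far below it. The log2 difference of 0.53 ± 0.26 (SE, adjusted p = 0.798) fell to 0.24 without spleen array 1 and rose to 0.80 without spleen array 2. Zfp36l2, which with Zfp36l1 enforces quiescence in developing lymphocytes, showed no common direction. It read 2837, 3187 and 2019 in pancreas and 1680.4, 3047 and 3104 in spleen, with 1 low array in each tissue. Its log2 difference of 0.07 ± 0.26 (SE, 95% interval -0.52 to 0.65) turned to -0.22 without spleen array 1 and to -0.07 without pancreas array 2.

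Neither of the Btg genes passed. Btg1 was at 4238, 3549 and 2782 in pancreas and at 3536, 3929.9 and 4424 in spleen, so that pancreas array 1 lay among the spleen arrays and array 3 below them. The log2 difference was -0.18 ± 0.19 (SE, 95% interval -0.61 to 0.24), and it turned to 0.01 with arrays scaled to a common interquartile range. Btg2, a target of p53 as well as an immediate-early gene, was at 1527, 1409.9 and 1257 in pancreas and at 1179, 1321 and 1259 in spleen. Those ranges overlapped, with a log2 difference of 0.15 ± 0.16 (SE, 95% interval -0.20 to 0.51). These intervals leave room for differences of up to 0.61 in size for Btg1 and 0.51 for Btg2 on the log2 scale.

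Zc3h12a, the regnase-1 gene, was at 255, 272 and 186 in pancreas and at 184, 264 and 289 in spleen, 2 nearly identical ranges. The log2 difference of -0.04 ± 0.22 (SE, 95% interval -0.53 to 0.45) lay near 0 and changed sign with quantile normalization, with array weights and when pancreas array 3, spleen array 2 or spleen array 3 was left out. Ier2, an immediate-early gene whose protein acts in the nucleus, was at 122, 131 and 78.2 in pancreas and at 64.7, 88.6 and 103 in spleen, all above background but within about 1 log2 unit of it. Pancreas array 3 lay below spleen arrays 2 and 3. The difference was 0.36 ± 0.24 (SE, 95% interval -0.17 to 0.89) and did not pass. Ier3, which modulates survival under NF-kB, was below background on all 6 arrays, from 45.5 to 56.5, so its fold is not read.

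**Figure D3:**
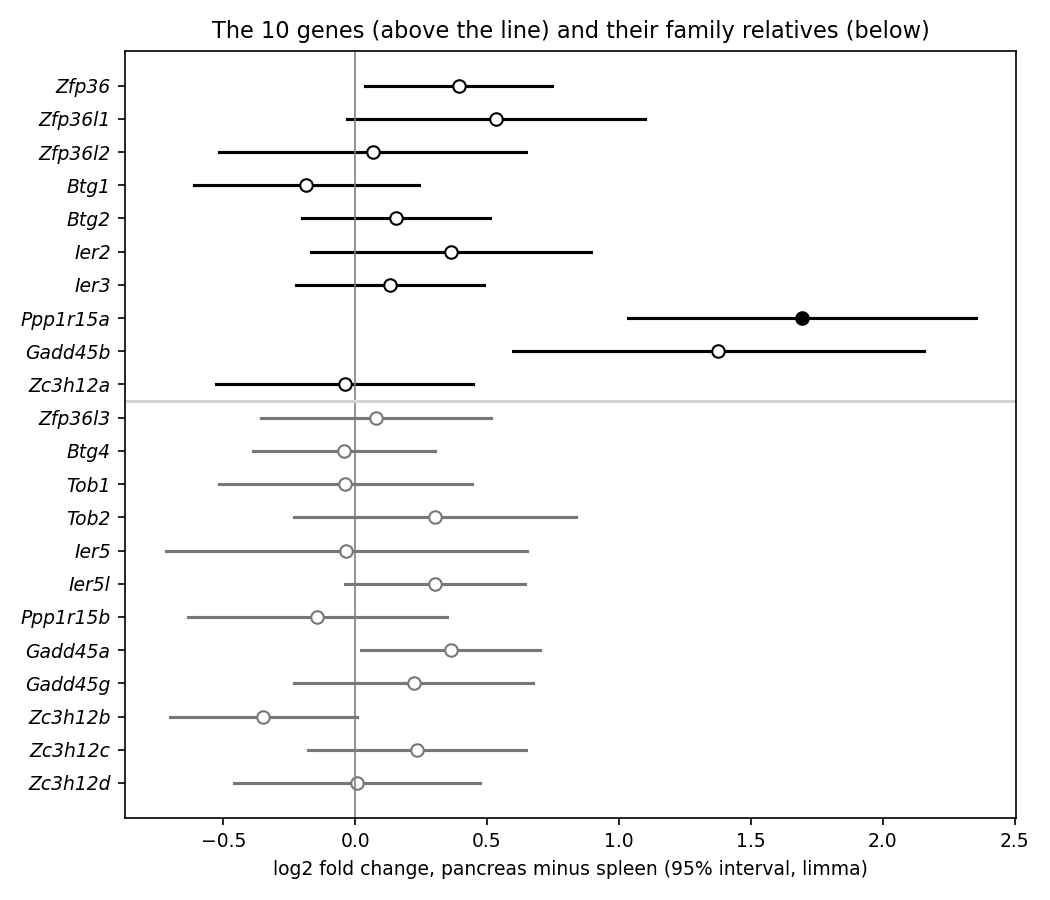
Log2 fold change (pancreas minus spleen) with its 95% interval from limma for the 10 genes, above the line, and 12 relatives, below it; the filled point passed the test. Ppp1r15a and Gadd45b have intervals that start at 1.04 and 0.60, and the intervals of the other 8 genes reach no further than 1.10. The value of Ier3 compares arrays that are all below background.

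Within each tissue the genes moved together by array. Of the 9 genes above background, 8 were lowest among pancreas arrays on array 3, and all 9 were lowest among spleen arrays on array 1. The exception in pancreas was Zfp36, which was lowest on array 2. Of the 11698 genes with a mean above background, 62.4% were lowest on pancreas array 3 and 49.1% on spleen array 1. These arrays had the narrowest log2 distributions of their tissue, with interquartile ranges of 2.23 and 2.49, beside 2.72 to 3.07 on the other 4. After scaling all arrays to 1 width, the log2 difference of Ppp1r15a was 1.74 and that of Gadd45b 1.45. Under that scaling Zfp36 was at 0.54, Zfp36l1 at 0.71 and Zfp36l2 at 0.26, and 0 of the 10 genes passed. No scaling tried moved the median of all genes by over 0.03 on the log2 scale.

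The closest relatives of these genes did not pass the test. Of 12 measured relatives, 0 rose and 0 fell (limma adjusted p under 0.05; 1 had an unadjusted p under 0.05), and their median log2 fold change was 0.04. Gadd45a, the p53-induced sister of Gadd45b, was at 6.90 ± 0.08 against 6.54 ± 0.05 on the log2 scale (SD, n = 3 each). Its difference of 0.36 did not pass (adjusted p = 0.671) although the arrays did not overlap. Ier5l, a relative of Ier2, had a difference of 0.30 and Zc3h12b, a relative of regnase-1, of -0.35, again without overlap. Zc3h12c was at 0.24. Ppp1r15b, the constitutive counterpart of Ppp1r15a, was at -0.14 ± 0.22 (SE).

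To ask whether a gene changed more than its relative, the log2 ratio of the pair was taken within each array, for 10 pairs. The pair of Ppp1r15a and Gadd45b set genes of different families against each other. The ratio of Ppp1r15a to Ppp1r15b was 0.61, 1.46 and 0.90 on pancreas arrays 1 to 3 and -1.46, -0.28 and -0.80 on spleen arrays 1 to 3. The tissues did not overlap, with means 1.84 apart, and the exact two-sided permutation p was 0.1, the smallest that 3 arrays against 3 allow. The ratios of Gadd45b to Gadd45a overlapped, with means 1.02 apart (exact p = 0.2). Gadd45g was above background on 1 pancreas array and 0 spleen arrays, so its ratio to Gadd45b is not read. Smaller shifts without overlap were found for Btg2 over Btg1 (0.34) and Ier2 over Ier5 (0.40), both at an exact p of 0.1. The 3 pairs within the Zfp36 family overlapped, as did Zc3h12a over Zc3h12d and Ppp1r15a over Gadd45b. Adjusted over the 10 pairs, the smallest p was 0.25. Since no exact p can fall under 0.1 with 3 arrays against 3, no pair could have passed. The exact test therefore cannot decide whether a gene changed more than its relative.

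**Figure D4:**
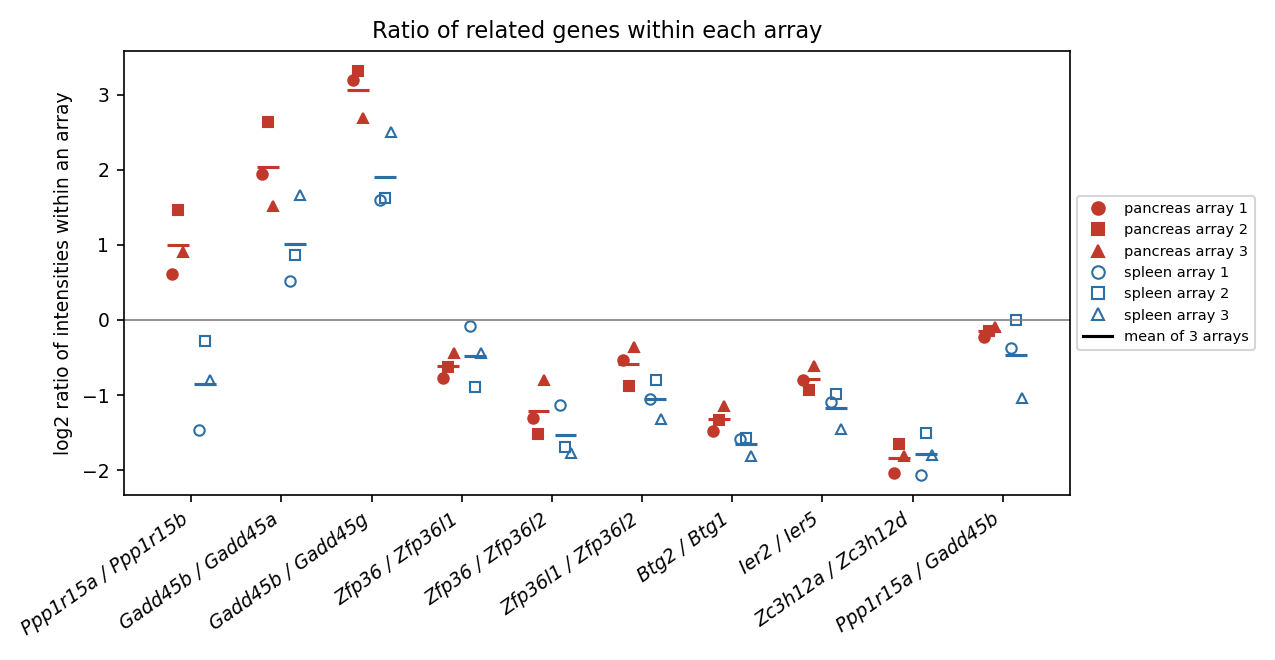
Log2 ratio of 2 genes within each array, for 10 pairs. Filled red symbols are pancreas, open blue symbols spleen and bars the means. All pairs but Ppp1r15a over Gadd45b are of relatives. Only the shift between tissues is interpretable, not the height of a pair, and Gadd45g is near background. Ppp1r15a over Ppp1r15b shows the widest gap, with means 1.84 apart.

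The deadenylation and decay machinery, which includes the CCR4-NOT complex that the Zfp36 and Btg proteins recruit, showed no passing member. Of 34 genes of deadenylation and decay, 0 passed (2 had an unadjusted limma p under 0.05), 27 had a lower mean in pancreas and the median log2 fold change was -0.13, beside -0.04 over all genes with a mean above background. Those nearest to the threshold were Lsm1, part of the ring that promotes decapping (-0.55, adjusted p = 0.434), the deadenylase gene Parn (-0.43), the decapping enhancer gene Edc3 (-0.32) and the helicase gene Ddx6 (-0.28). Of 14 other regulators that bind mRNA or control such proteins, 0 passed either (2 had an unadjusted p under 0.05). Malt1, the protease that cleaves regnase-1 and roquin after T cell receptor signals, stood higher, at 10.33 ± 0.32 against 9.70 ± 0.12 (SD, n = 3 each), with no overlap and an adjusted p of 0.318. Tia1, a stress granule protein gene, was at -0.75, and the roquin genes Rc3h1 and Rc3h2 were at -0.32 and -0.37.

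Among mRNAs known to be controlled by the Zfp36 proteins, regnase-1 or roquin, 5 of 28 rose and 0 fell. They were the anti-inflammatory cytokine gene Il10 (at least 8.41-fold, with all 3 spleen arrays below background, adjusted p = 7.72e-05), the chemokine gene Ccl3 (at least 6.77-fold, with 1 of 3 spleen arrays above background), and Fos (at least 4.11-fold, with 2 of 3). Ifng, which encodes interferon gamma (2.47-fold, adjusted p = 0.00952), and the phosphatase gene Dusp1 (2.57-fold, adjusted p = 0.0495) completed them. The calls of the first 4 held with each array left out in turn. That of Dusp1 ended without pancreas array 1 (adjusted p = 0.113), pancreas array 2 (0.209), spleen array 1 (0.0764) or spleen array 3 (0.0791). The median over the 28 was 0.22, and 7 of them were below background on all arrays. The mean was higher in pancreas for 24 of the 28, beside 49.8% of all genes. At an unadjusted limma p under 0.05, 9 were higher and 1 lower, beside 3.2% and 3.64% of all genes. Without overlap, 10 were higher and 2 lower, beside 4.57% and 5.81%. This list too was chosen with earlier results of these data known, so these shares are no test. Among targets attributed to regnase-1, several did not pass, with Ctla4 at 0.60, Tnfrsf4 at 0.49, Icos at 0.38 and Rel at -0.40. Each of these had an unadjusted limma p under 0.05 and no overlap between tissues. The acinar and B cell markers given above rose on the same arrays, and their part was not tested.

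Of 15 other genes of the integrated stress response, the pathway in which Ppp1r15a acts, 0 passed (1 had an unadjusted limma p under 0.05), with a median log2 fold change of 0.03. The nearest was the asparagine synthetase gene Asns, at 7.45 ± 0.22 against 6.71 ± 0.17 (SD, n = 3 each), with a difference of 0.74 and no overlap (adjusted p = 0.132). Atf4, the transcription factor of the response, was at 0.29, its partner and target Ddit3 (CHOP) at -0.11 and Atf3 at 0.03. Cebpb was at 0.42, the chaperone gene Hspa5 at 0.36 and Ddit4 at -0.63. Of 11 partners of Gadd45 proteins and p53 targets, 1 rose and 1 fell. The mitotic kinase gene Cdk1 was 2.65-fold higher (adjusted p = 0.0245) and Sesn1, a p53 and FoxO target, had a log2 fold change of -0.98 (adjusted p = 0.0482). Leaving out pancreas array 1 or 2 or spleen array 1 or 3 ended the call of Cdk1 (limma adjusted p = 0.0607 to 0.0769). Sesn1's call ended without pancreas array 2 or any of the 3 spleen arrays (adjusted p up to 0.236). Pcna was at 0.60 and the p38 kinase gene Mapk14 at -0.45, with no overlap for either.

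Immediate-early transcription factors are commonly induced beside genes such as these 10. Of 21 measured, 4 rose and 0 fell, namely Fos, Fosb (log2 fold change 1.23), Jun (1.94) and Nr4a2 (1.85), an orphan nuclear receptor gene. The median was 0.31, beside 0.26 for the 10 genes. Jun's call ended without pancreas array 1 or 2 (adjusted p up to 0.0865) and that of Nr4a2 without pancreas array 1 (0.0562). Of the 21, 19 had a higher mean in pancreas, beside 49.8% of all genes. At an unadjusted limma p under 0.05, 10 were higher and 0 lower, beside 3.2% and 3.64% of all genes. Arrays of 9 did not overlap and were higher in pancreas, beside 4.57% of all genes. The list was chosen with earlier results of these data known, so these shares describe it and are no test. Without overlap but short of the threshold stood Junb (1.23), Nr4a1 (1.10), Fosl2 (1.05), Nr4a3 (0.62) and Klf6 (0.62). Egr1 was at 0.30, Egr2 at 0.25, Myc at 0.07 and Klf2 at -0.34, and none of these passed. Fos and Myc also stand on the list of controlled mRNAs, and Atf3 on the stress list. What part the RNA of the acinar and B cell marker lists had in these values was not tested.

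**Figure D5:**
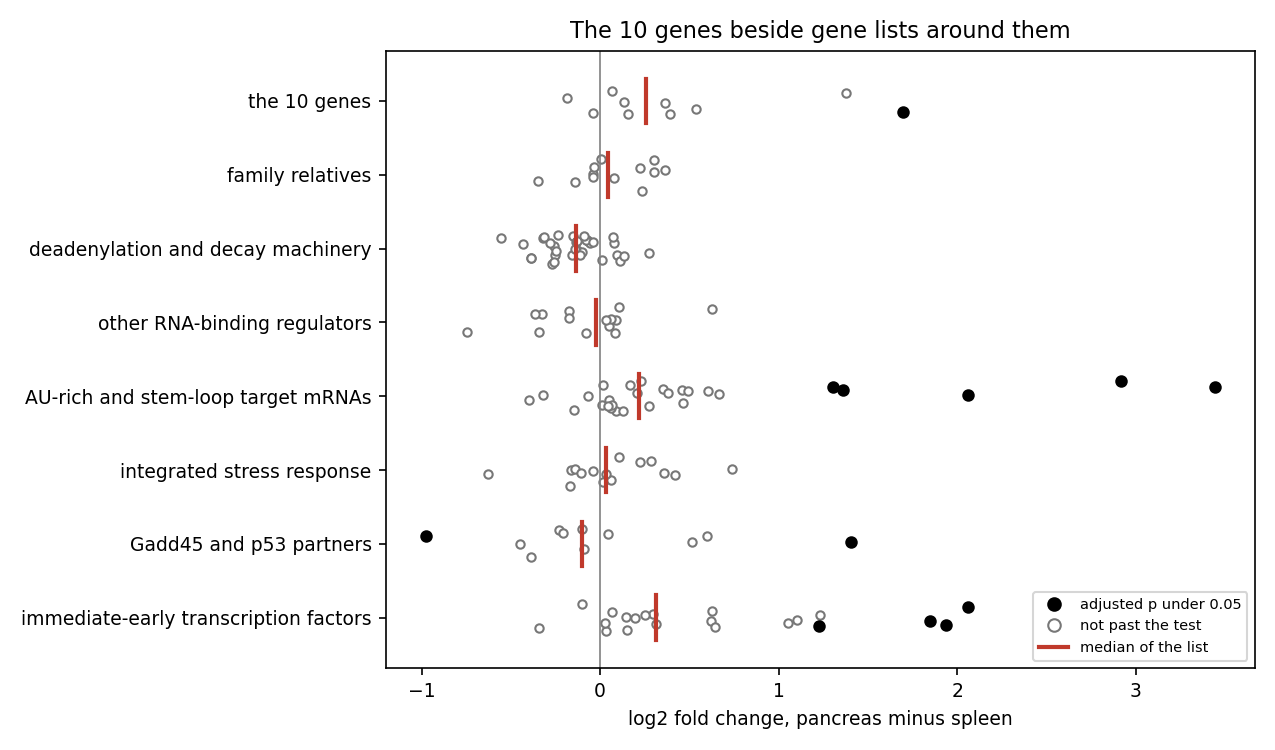
Log2 fold change (pancreas minus spleen) of each gene of the 10 and of 7 surrounding lists, with filled points for an adjusted p under 0.05 and a red bar for each median; the fitted values of Il10, Ccl3 and Fos are not exact, since spleen arrays were below background. Called genes number 1 of the 10, 5 among controlled mRNAs, 2 among Gadd45 and p53 partners and 4 among immediate-early factors.

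Genes with the pattern most like these were ranked by Pearson correlation over the 6 arrays, among 9950 genes above background on all of them. The mean standardised level of the 9 genes above background was 0.80, 0.80 and -0.40 on pancreas arrays 1 to 3 and -1.31, 0.01 and 0.09 on spleen arrays 1 to 3. Nearest to it were Trpv2, Trappc1, Stk35, Ncf4, Ptpn1 and Creb3l2, at 0.992 to 0.996, none of which passed the test between tissues. Nearest to Ppp1r15a alone were the DNA polymerase genes Pold1 (0.995) and Pole2 (0.993) and the ubiquitin-conjugating enzyme gene Ube2s (0.991). The ranking rests on 6 arrays, whose differences in width are shared by all genes.

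Promoters of the 3 genes whose arrays did not overlap, and of Btg2, whose arrays overlapped, are shown to compare their start regions. They are RefSeq windows of 250 bases before to 50 after the annotated start, GRCm38.p6, printed 5′ to 3′ on the gene's strand, and capitals mark matches to 7 motifs searched on both strands. The motifs were the CArG box (serum response element), TGACGTCA (cAMP response element), TGANTCA (AP-1), the NF-kB site, GCGNGGGCG (Egr), TATAAA and TGATGNAA (ATF4 and C/EBP composite).
Ppp1r15a, chr7:45526219-45526518, minus strand: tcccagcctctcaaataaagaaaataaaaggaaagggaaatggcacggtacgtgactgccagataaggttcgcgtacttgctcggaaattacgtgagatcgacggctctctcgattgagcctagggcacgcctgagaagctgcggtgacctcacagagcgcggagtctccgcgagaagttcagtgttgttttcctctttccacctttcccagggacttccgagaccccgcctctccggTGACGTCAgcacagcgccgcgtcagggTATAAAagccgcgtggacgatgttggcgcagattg
Gadd45b, chr10:80929841-80930140, plus strand: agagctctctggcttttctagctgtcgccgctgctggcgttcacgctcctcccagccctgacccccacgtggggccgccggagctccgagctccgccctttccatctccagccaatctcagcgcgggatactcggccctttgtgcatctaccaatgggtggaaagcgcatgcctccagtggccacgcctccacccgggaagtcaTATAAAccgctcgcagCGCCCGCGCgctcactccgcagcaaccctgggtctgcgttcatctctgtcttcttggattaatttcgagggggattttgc
Zfp36, chr7:28379179-28379478, minus strand: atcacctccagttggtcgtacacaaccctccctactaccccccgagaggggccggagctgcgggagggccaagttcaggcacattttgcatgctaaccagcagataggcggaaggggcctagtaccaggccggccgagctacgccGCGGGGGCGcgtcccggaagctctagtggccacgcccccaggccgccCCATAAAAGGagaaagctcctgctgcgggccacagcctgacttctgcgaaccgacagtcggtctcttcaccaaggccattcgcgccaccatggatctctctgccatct
Btg2, chr1:134079106-134079405, minus strand: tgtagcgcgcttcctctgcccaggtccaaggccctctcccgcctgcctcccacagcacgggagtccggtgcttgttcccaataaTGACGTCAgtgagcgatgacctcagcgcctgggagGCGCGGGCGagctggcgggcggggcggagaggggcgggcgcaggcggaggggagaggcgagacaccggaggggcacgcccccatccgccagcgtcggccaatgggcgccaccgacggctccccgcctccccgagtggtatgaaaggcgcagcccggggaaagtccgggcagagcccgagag

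The Ppp1r15a window held TGACGTCA at positions -12 to -5 from the start and TATAAA just after it. That of Gadd45b held TATAAA at -46 to -41 and GCGNGGGCG, on the opposite strand, at -30 to -22. In Zfp36 a CArG box lay at -58 to -49, with GCGNGGGCG further upstream. The window of Btg2 held TGACGTCA too, at -166 to -159, with GCGNGGGCG. TGACGTCA thus lay in both windows at unlike distances from the start, and its use in either gene was not tested. Of 32851 RefSeq windows of this length, 1.79% held TGACGTCA, 1.63% a CArG box, 5.55% GCGNGGGCG, 13.6% TATAAA, 7.81% TGANTCA, 4.51% an NF-kB site and 3.97% TGATGNAA. Of the other members with a window, Zfp36l1 held TGANTCA and TATAAA, Btg1 TATAAA, Ier3 an NF-kB site and Zc3h12a no match. In all, 8 of the 10 genes had a window in the table. A match describes letters only, and nothing here measured binding.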

How the data were processed

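Per the labels, the Ambion WT Expression Kit amplified the RNA of sorted Treg cells. The authors deposited 1 linear intensity per probe set and array. Per the submitters' processing notes these came from Affymetrix Power Tools and RMA, without versions. Values between 4.78 and 17604 were log2-transformed without a pseudocount. Array medians differed, from 82.0 to 92.0, and the sources used here do not state how arrays were normalized together.

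Of 24922 probe sets, 21425 name exactly 1 gene in the platform annotation and were used, and 21347 matched RefSeq (GRCm38.p6) by gene ID. The probe set with the highest mean stood for a gene, which left 19752 genes. A fold against arrays below background is a lower bound, with such arrays set to the background level.

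Groups came from the titles. Genes were compared with limma 3.58.1 in R 4.3.3 (lmFit, eBayes, 6 arrays, no covariates, two-sided, Benjamini-Hochberg over all genes). The fit was tried on simulated data with independent noise for each gene. Such data lack the shifts that genes of an array share, so they cannot show the rate of false calls under such shifts. Moderation used 6.58 prior and 4 residual degrees of freedom. Exact permutation tests served the ratios within arrays. Members and lists were chosen with earlier results of these data known. From each list, up to 4 genes above background with the smallest adjusted p and all that passed are named, and others named were chosen after seeing values. List genes without their own probe set are not analysed here. Alternatives covered normalization, background, dim genes, probe sets, variance model, array weights, a pseudocount of 16, a block for the replicate number, and leaving out each array. Array weights were fitted gene by gene, since limma's default did not converge. Figures were drawn with matplotlib 3.10.9. The number of arrays limits the precision.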

Additional observations from a re-analysis of the deposited data

How the results depend on the processing

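The log2 fold change of Ppp1r15a ran from 1.58 to 1.97 and that of Gadd45b from 1.30 to 1.90 over the 11 settings that kept all arrays, while their calls depended on the setting. The median log2 fold change of the 10 genes was 0.21 to 0.31 over those settings that kept all 10, 0.36 over the 9 left when dim genes were dropped, and 0.18 to 0.32 with 1 array left out. The count of the 10 that passed, 1 with all arrays, ran from 0 to 2 with 1 array left out, and the count over all genes from 64 to 262. With arrays centred on their median, 0 of the 10 and 38 of all genes passed, with 0 Gadd45 and p53 partners, 2 immediate-early factors, 8 acinar, 2 B cell and 0 CD8 T and NK markers. With a common interquartile range, 0 of the 10 and 71 of all genes passed, with 0 Gadd45 and p53 partners, 2 B cell and 0 CD8 T and NK markers. Quantile normalization gave 203 genes in all, with 1 CD8 T and NK and 1 endothelial and stromal marker. A pseudocount of 16 gave 0 of the 10, 84 in all, 0 Gadd45 and p53 partners and 0 CD8 T and NK markers. Values under background set to that level gave 0 of the 10 and 3 in all, with 1 controlled mRNA and 0 Gadd45 and p53 partners, immediate-early factors, acinar, B cell, macrophage and dendritic cell or CD8 T and NK markers. That setting lowered limma's prior degrees of freedom from 6.58 to 0.353 and left the difference of Ppp1r15a at 1.69. Without moderation across genes, limma gave 0 calls in all, and so 0 on every list, with 1176 genes at an unadjusted p under 0.05. Restricting to genes above background left 0 CD8 T and NK markers. Array weights gave 2 of the 10, adding Gadd45b, and 1671 genes in all, 719 of them higher in pancreas. Under them the lists had 2 relatives, 3 decay genes, 4 other mRNA regulators, 9 controlled mRNAs, 4 stress genes, 6 Gadd45 and p53 partners, 9 immediate-early factors, 8 B cell, 3 macrophage and dendritic cell, 1 islet and 3 endothelial and stromal markers. The cause of these changes was otherwise not tested. With 1 array left out, counts ran from 2 to 7 for immediate-early factors, 0 to 2 for Gadd45 and p53 partners, 4 to 5 for controlled mRNAs, 9 to 20 for acinar, 3 to 9 for B cell, 1 to 2 for macrophage and dendritic cell and 0 to 2 for CD8 T and NK markers.

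The titles number the arrays 1 to 3 in both tissues, and the main fit did not pair them. Deviations of same-numbered arrays from their tissue mean had correlations across genes of -0.18, 0.05 and -0.63. Such deviations also carry array width, with interquartile ranges of 2.23 on pancreas array 3 and 3.00 on spleen array 3. They therefore cannot decide whether equal numbers mark a pairing. With the replicate number as a block, 1 of the 10 genes passed, again Ppp1r15a (adjusted p = 0.00337), and 132 of all genes, with 8 B cell markers, 1 Gadd45 and p53 partner and 0 CD8 T and NK markers.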
